A study of Rattus norvegicus with 24 samples.

Results

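The genes described here code for enzymes that write and erase marks on chromatin and DNA, and for proteins that read or move nucleosomes. Members were the probe sets that the platform annotation assigns to exactly 1 gene symbol and whose symbol belongs to 1 of 11 families, namely Dnmt and Tet (DNA methylation), Kmt, Setd and Ezh (histone methyltransferases and their relatives), Kdm (histone demethylases), Kat (lysine acetyltransferases), Hdac and Sirt (deacetylases), Smarc (subunits of nucleosome remodelling complexes) and Cbx (chromodomain readers). These were 145 probe sets of 82 genes, out of 20826 probe sets of 14217 genes with 1 symbol each, and the probe set with the highest mean level stood for its gene. The study measured RNA from pachytene spermatocytes, the germ cells in the long prophase of the first meiotic division, and from round spermatids, the haploid cells that follow them, on Affymetrix expression arrays. The cells came from testes of Brown Norway (BN) rats that were 4 months old (young, 6 rats) or 18 months old (aged, 6 rats), and each numbered rat of the titles has 1 array of each cell type, so that 24 arrays fell into 4 groups of 6. Nothing in the labels names a treatment, and both age groups carry the same strain name. The cell types were separated by enzymatic digestion of the testis and sedimentation in a density gradient, and the labels give the purity of the fractions as over 83%, so each array also holds RNA of other cells.

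Chromatin enzymes act in opposed pairs. Acetyltransferases and deacetylases set the acetylation of histone tails, which opens or closes chromatin, methyltransferases and demethylases set histone lysine methylation, and Dnmt enzymes place the cytosine methylation that Tet enzymes oxidise. In the male germ line these enzymes are known for their part in meiotic recombination, in the silencing of the X and Y chromosomes in pachytene spermatocytes, and in the hyperacetylation of histones in spermatids before transition proteins and protamines replace them.

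Levels are given as log2 units on 2 scales. Age was compared within a cell type after quantile normalization of its 12 arrays. The cell types were compared on a joint scale, for which a constant was added to the linear pachytene values until 45 spike-in controls matched, because a control for an absent transcript averaged 4.28 in pachytene and 6.83 in round spermatid arrays as deposited. The highest value of that control on the joint scale was 6.88 for pachytene spermatocytes and 7.04 for round spermatids. The medians of Kdm4c and Tet1 were not above it in either cell type, nor were those of Kdm5c and Smarca1 in round spermatids, so differences of these genes have a floor there. Within the young group, 3 pachytene arrays lay away from the others: rats 1, 10 and 11 scored -86.3, -47.1 and -44.0 on principal component 1 (73.9% of the variance), and rats 2, 3 and 13 between -7.38 and 3.78. The mean level of 10 round spermatid markers (relative to the mean over all genes on an array, as are all marker levels here) was 5.56, 5.18 and 5.29 in these fractions and 4.62 to 4.79 in the other young fractions. Called changes of named members with age in pachytene spermatocytes are therefore given with and without these 3 rats, and the part of the markers in them was not tested. The same 3 rats, chosen on the pachytene arrays, were left out of the other comparisons too. Leaving out 3 of 6 young rats also lowers precision, so a call can be lost without a smaller change. In the round spermatid arrays young rat 10 scored -40.7 on principal component 1 (62.2% of the variance). The other young rats lay between -18.7 and 4.70.

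The promoters of the members were rich in CpG dinucleotides. RefSeq (assembly GRCr8) gave a promoter (a window of 300 bases around the first listed start) for 70 of the 82 members and for 11733 of the measured genes. Median GC content was 63.0% in the members and 60.0% in the measured genes, and 85.7% of the members against 63.9% of the measured genes had an observed to expected CpG ratio over 0.6. On both strands, the GC box GGGCGG was found in 52 member promoters (74.3%, against 57.5% of the promoters of measured genes and 34.9% of all 27457 promoters) and the CCAAT box in 31 (44.3%, against 37.3% and 37.7%). The core of the cyclic AMP response element, TGACG, was in 27 (38.6%, against 29.2% and 22.0%), the whole element TGACGTCA, which contains that core, in 1 (1.43%, against 2.86% and 1.91%) and the TATA box TATAAA in 1 (1.43%, against 8.45% and 14.3%). These shares describe letters in a window and were not tested. The promoters of 5 members on which the results below turn are printed 5′ to 3′ with every match to these motifs in capitals. They are Kat7 (chr10:80752338-80752637, minus strand), Kat5 (chr1:212332344-212332643, minus strand), Kat2b (chr9:6798895-6799194, plus strand), Hdac6 (chrX:17222925-17223224, plus strand) and Smarca1 (chrX:131944233-131944532, minus strand). Kat7 and Kat5 are shown because they were higher in aged rats in both cell types, Kat2b because it was lower in aged pachytene spermatocytes, and Hdac6 and Smarca1 as X-linked members that were lower there.
Kat7: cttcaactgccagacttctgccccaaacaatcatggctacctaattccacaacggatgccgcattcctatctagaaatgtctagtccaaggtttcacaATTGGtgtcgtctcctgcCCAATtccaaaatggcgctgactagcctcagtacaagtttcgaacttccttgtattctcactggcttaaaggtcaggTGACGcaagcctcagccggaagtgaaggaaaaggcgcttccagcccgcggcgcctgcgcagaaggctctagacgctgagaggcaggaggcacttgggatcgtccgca
Kat5: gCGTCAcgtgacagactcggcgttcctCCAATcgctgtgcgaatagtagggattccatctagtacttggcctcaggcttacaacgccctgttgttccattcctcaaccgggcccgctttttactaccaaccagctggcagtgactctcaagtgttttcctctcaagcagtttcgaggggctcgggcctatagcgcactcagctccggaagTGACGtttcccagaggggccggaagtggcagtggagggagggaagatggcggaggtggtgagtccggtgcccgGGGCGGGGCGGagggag
Kat2b: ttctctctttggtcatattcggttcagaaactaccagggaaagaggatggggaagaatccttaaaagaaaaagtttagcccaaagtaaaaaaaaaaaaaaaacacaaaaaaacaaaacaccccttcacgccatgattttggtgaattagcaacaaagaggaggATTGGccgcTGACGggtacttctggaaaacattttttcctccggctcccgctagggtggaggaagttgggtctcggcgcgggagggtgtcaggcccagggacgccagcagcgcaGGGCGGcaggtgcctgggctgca
Hdac6: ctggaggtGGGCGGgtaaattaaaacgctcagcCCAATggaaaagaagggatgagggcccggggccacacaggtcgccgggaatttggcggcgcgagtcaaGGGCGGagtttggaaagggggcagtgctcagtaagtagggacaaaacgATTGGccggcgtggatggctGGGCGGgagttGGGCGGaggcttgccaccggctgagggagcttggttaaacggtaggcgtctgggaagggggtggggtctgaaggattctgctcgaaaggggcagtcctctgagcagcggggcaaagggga
Smarca1: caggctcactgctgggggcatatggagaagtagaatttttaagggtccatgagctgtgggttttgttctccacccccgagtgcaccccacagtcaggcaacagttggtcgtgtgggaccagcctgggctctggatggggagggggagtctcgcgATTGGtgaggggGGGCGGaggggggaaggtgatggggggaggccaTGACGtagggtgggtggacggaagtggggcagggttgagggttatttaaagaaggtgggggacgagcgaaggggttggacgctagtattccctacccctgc
The Kat7 window holds 2 CCAAT boxes and 1 TGACG core and no GC box. The Kat5 window holds 2 overlapping GC boxes, and the Hdac6 window 4 GC boxes. The Smarca1 window has an observed to expected CpG ratio of 0.43, against 0.72 in Kat7.

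The first comparison asks how the levels of these genes differed between pachytene spermatocytes and round spermatids. Most members had less signal in round spermatids: 46 of 82 were lower (56.1%) and 28 were higher (34.1%), while over all 14217 genes 38.6% were lower and 49.8% higher (limma, Benjamini-Hochberg adjusted p under 0.05; 85.1% of all 31042 probe sets were called, 46.9% higher and 38.2% lower). The median member differed by -0.21 (log2, round spermatids minus pachytene spermatocytes) and the median gene by 0.06. The median member differed by -0.49 with median centring and by -0.55 on the deposited scale after the offset, where the median of all probe sets was 0.05 and -0.01. The 2 cell types did not overlap for 46 members, 18 higher and 28 lower, while 50.0% of all genes did not overlap. In these mixed fractions, fewer cells of a type and less RNA per cell cannot be told apart. Markers went with the labels: all 10 round spermatid markers were higher in the round spermatid arrays, and 7 of 8 pachytene markers were lower, with 1 higher. Markers of other cells moved too. Of 12 Sertoli cell markers 10 were lower in round spermatids and 2 higher, and 7 of 7 macrophage markers were higher. Of 6 spermatogonial markers 4 were higher and 1 lower, and of 5 peritubular markers 4 were higher. Among 6 Leydig cell markers 1 was higher and 3 lower, and among 4 endothelium markers 1 was higher and 2 lower. The part of these markers in the members' differences was not tested.

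**Figure D1:**
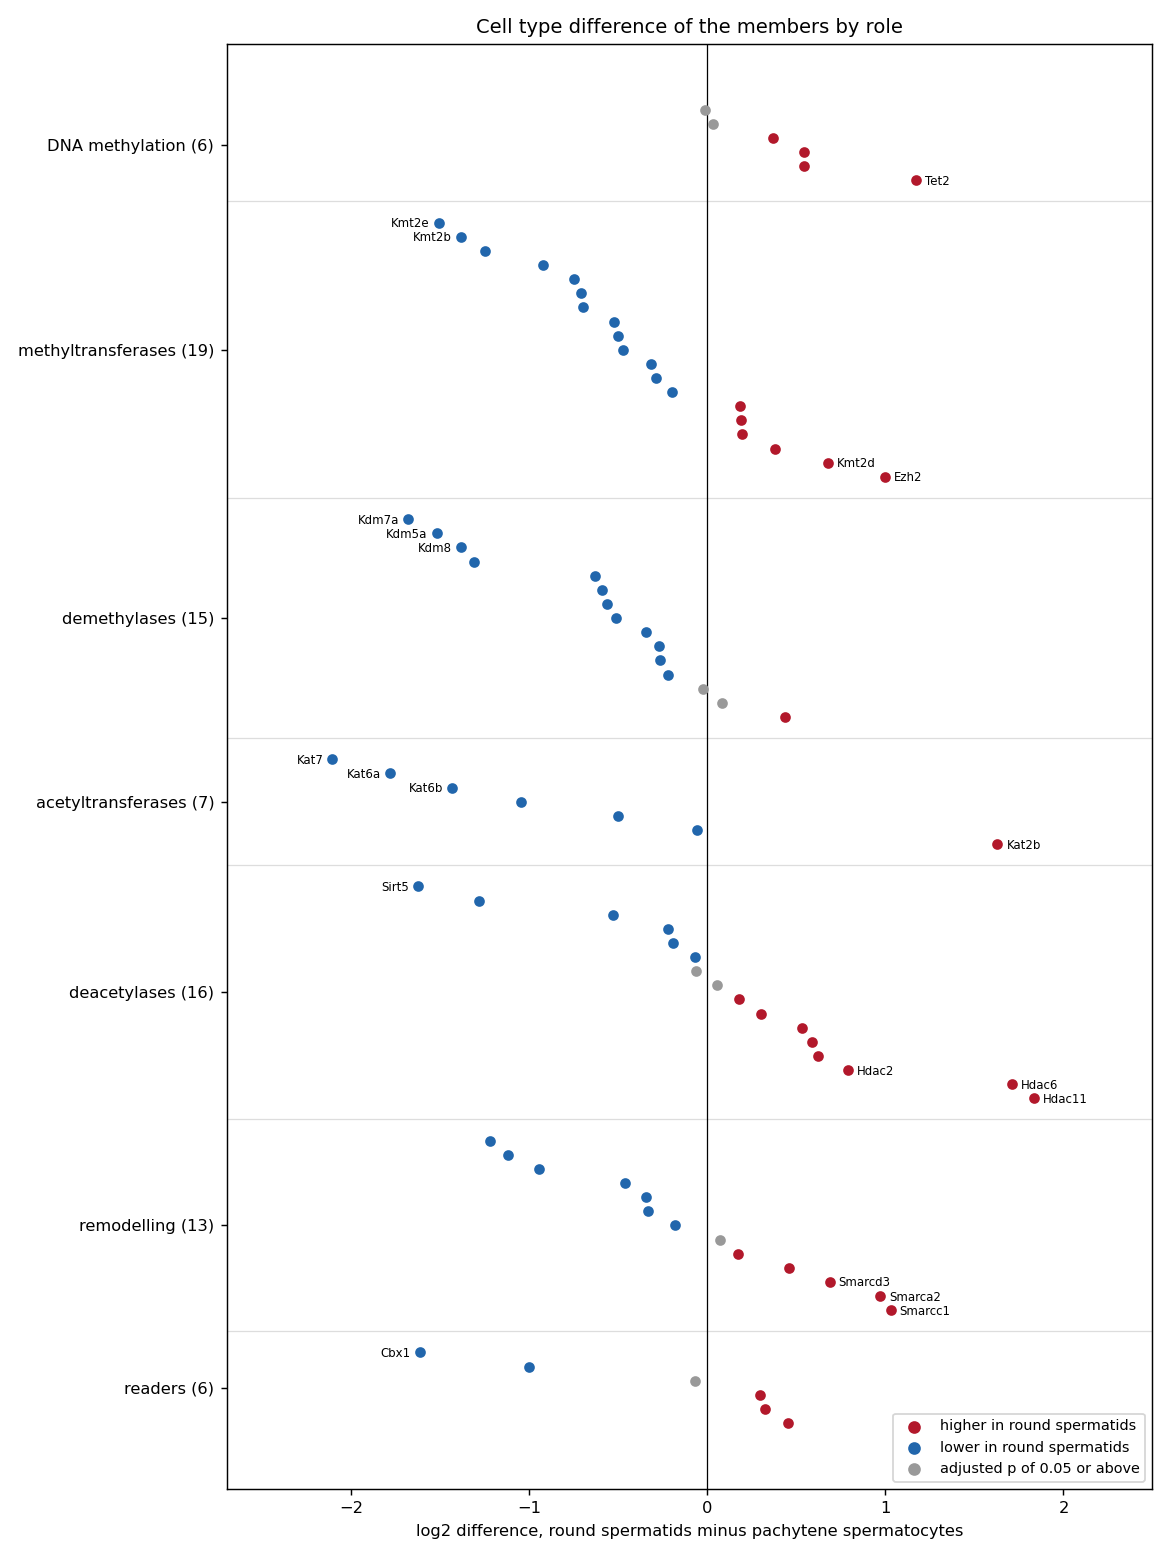
The log2 difference between round spermatids and pachytene spermatocytes is plotted for each of the 82 members, with 1 point per gene, grouped by role with the number of members in brackets and sorted within a role; colours mark the direction of the call. Acetyltransferases and demethylases lie mostly to the left, with Kat2b at 1.63 as the exception among acetyltransferases, while Hdac11 and Hdac6 lie farthest to the right.

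Of the 7 acetyltransferases, 6 were lower in round spermatids and 1 was higher. Kat7, also known as HBO1, which acetylates histone tails around replication origins and active genes, had a level of 11.33, 12.70 and 12.91 (lowest, median and highest of the 12 pachytene arrays), and in round spermatids the lowest was 9.83 and the median 10.41. The cell types did not overlap, and the level fell by 2.11 ± 0.11 (SE), or 4.31-fold (adjusted p = 2.73e-14). Kat6a, a MYST-family acetyltransferase that works in complexes with reader subunits, was between 9.97 and 10.53 in pachytene spermatocytes (median 10.34) and between 8.03 and 8.74 in round spermatids (median 8.55). It fell by 1.78 ± 0.06, without overlap (adjusted p = 2.06e-17), and its close relative Kat6b fell by 1.43 ± 0.04 (adjusted p = 1.09e-18). Kat5, the catalytic subunit of the TIP60 complex, fell by 1.05 ± 0.13 with overlap between the cell types (adjusted p = 5.36e-08), Kat14 by 0.50 and Kat2a by 0.06. Kat2b, or PCAF, a coactivator acetyltransferase, was the exception, with a level of 9.23, 9.69 and 10.92 in pachytene spermatocytes and 10.72, 11.45 and 11.79 in round spermatids, a rise of 1.63 ± 0.12 or 3.09-fold (adjusted p = 1.75e-11). Its ranges overlapped through the pachytene fraction of young rat 1 (10.92) and the round spermatid fraction of young rat 10 (10.72).

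Among the 16 deacetylases, 8 were higher and 6 lower in round spermatids, while 49.8% of all genes were higher and 38.6% lower. Of the 10 classical Hdac genes 6 were higher and 3 lower, and of the 6 NAD-dependent Sirt genes 2 were higher and 3 lower. Hdac11, the sole class IV deacetylase, had a level of 7.73, 7.90 and 8.56 in pachytene spermatocytes and 9.54, 9.76 and 10.24 in round spermatids. All round spermatid arrays lay above all pachytene arrays, a rise of 1.83 ± 0.08 or 3.56-fold (adjusted p = 4.26e-16). Hdac6, a cytoplasmic deacetylase of tubulin whose gene is on the X chromosome, was 8.12, 8.42 and 9.53 in pachytene spermatocytes and 9.95, 10.20 and 10.73 in round spermatids, again without overlap. It rose by 1.71 ± 0.09 or 3.27-fold (adjusted p = 3.95e-14). Hdac2, a catalytic subunit of nuclear corepressor complexes, rose by 0.79 ± 0.07 with overlapping ranges (adjusted p = 5.17e-10), its paralog Hdac1 rose by 0.53, and Hdac3, the catalytic subunit of the NCoR complex, fell by 0.53.

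The sirtuins separated by gene. Sirt5, a mitochondrial enzyme that removes succinyl and malonyl groups, had a level of 10.71, 11.84 and 11.95 in pachytene spermatocytes and 9.37, 10.15 and 10.35 in round spermatids. It fell by 1.62 ± 0.11 or 3.08-fold, without overlap (adjusted p = 1.37e-12), and the nucleolar Sirt7 fell by 1.29 ± 0.04, also without overlap (adjusted p = 6.59e-19). Sirt6, a chromatin-bound sirtuin with a role in DNA repair, fell by 0.22 ± 0.03 (adjusted p = 5.2e-07). The mitochondrial Sirt4 rose by 0.62 ± 0.04 (adjusted p = 1.4e-13) and the tubulin deacetylase Sirt2 by 0.58 ± 0.04 (adjusted p = 3.6e-13). Sirt3, the main mitochondrial deacetylase, differed by 0.06 ± 0.06 and did not pass the test (adjusted p = 0.39).

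Demethylases were lower in round spermatids for 12 of 15 members and higher for 1, Kdm1b, which rose by 0.44 ± 0.05 (adjusted p = 5.74e-09). Kdm7a, a demethylase of repressive histone methylation, had a level of 10.23, 10.38 and 10.57 in pachytene spermatocytes and 8.36, 8.71 and 8.94 in round spermatids. The groups did not overlap, and it fell by 1.68 ± 0.04 or 3.21-fold (adjusted p = 2.23e-20). Kdm5a and Kdm5b, which remove methyl groups from the histone mark of active promoters, fell by 1.52 ± 0.06 (adjusted p = 2.33e-16) and 1.31 ± 0.07 (adjusted p = 8.5e-15). Kdm8 fell by 1.38 ± 0.03 (adjusted p = 2.53e-20), and no overlap was seen for any of these 4 genes.

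Of the 19 methyltransferases, 13 were lower and 6 higher in round spermatids. Kmt2e, an MLL-family protein with little methyltransferase activity of its own, went from a median of 11.97 (11.49 to 12.19) in pachytene spermatocytes to 10.45 (10.20 to 10.55), a fall of 1.51 ± 0.07 without overlap (adjusted p = 1.16e-15). Kmt2b, an MLL-family enzyme needed for male fertility in mice, fell by 1.38 ± 0.07 (adjusted p = 2.53e-15), and Setdb1, which methylates histones at silenced repeats, by 1.25 ± 0.05 (adjusted p = 3.9e-17). The Polycomb methyltransferases went opposite ways. Ezh2 had a level of 9.05, 9.24 and 9.37 in pachytene spermatocytes and 10.10, 10.20 and 10.53 in round spermatids and rose 1.99-fold (SE 0.04 on the log2 scale) without overlap (adjusted p = 2.14e-16), while Ezh1 fell by 0.32 ± 0.06 with overlap (adjusted p = 4.76e-05). Another probe set of Ezh1 was called in the opposite direction, and the same held for Hdac10, Kdm2a, Kdm5c, Kmt2c, Kmt2d, Setd5, Setdb1 and Smarcad1, that is for 9 of the 32 called members with further probe sets. Kmt2d was higher by 0.68 ± 0.05 on its brightest probe set (adjusted p = 1.65e-12) and lower by 1.92 on another one, so no direction is read for that gene.

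Of the 6 DNA methylation genes 4 rose and none fell. Tet2, which oxidises methylated cytosine, had a level of 7.33, 7.51 and 7.95 in pachytene spermatocytes and 7.46, 8.90 and 9.18 in round spermatids. The groups overlapped only through the round spermatid array of young rat 10 (7.46), and Tet2 rose by 1.17 ± 0.13 or 2.25-fold (adjusted p = 9.74e-09). The maintenance methyltransferase Dnmt1 rose by 0.54 ± 0.05 (7.93 to 8.05 against 8.28 to 9.07, adjusted p = 1.33e-09) and the de novo methyltransferase Dnmt3a by 0.37 ± 0.03 (adjusted p = 1.36e-11), both without overlap. Tet3 rose by 0.54 ± 0.02 without overlap (adjusted p = 5.04e-17). Dnmt3b differed by 0.03 ± 0.02 (adjusted p = 0.183) and Tet1, which was at the level of the absent control, by -0.02 ± 0.02 (adjusted p = 0.451).

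Among the 13 remodelling subunits, 5 were higher and 7 lower in round spermatids. The 2 alternative ATPases of the BAF complex moved in opposite directions, with Smarca2 higher by 0.97 ± 0.06 (9.19 to 10.16 against 10.37 to 10.89, adjusted p = 1.76e-13) and Smarca4 lower by 1.12 ± 0.06 (11.26 to 11.86 against 10.36 to 10.84, adjusted p = 8.74e-15), each without overlap. The core subunit Smarcc1 was 8.86, 8.98 and 9.13 in pachytene spermatocytes and 9.73, 10.04 and 10.11 in round spermatids, a rise of 1.03 ± 0.04 without overlap (adjusted p = 7.98e-18), and Smarcd3, a subunit used in muscle and heart, rose by 0.69 ± 0.02 (adjusted p = 9.46e-18). The core subunit Smarcb1 fell by 1.22 ± 0.09 (adjusted p = 9.04e-12). Of 6 chromodomain readers, 3 were higher and 2 lower. The heterochromatin protein gene Cbx1 went from a median of 9.51 (9.31 to 9.67) to 7.86 (7.59 to 8.28), a fall of 1.61 ± 0.07 or 3.06-fold without overlap (adjusted p = 3.59e-16), and the Polycomb reader Cbx7 was lower as well.

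**Figure D2:**
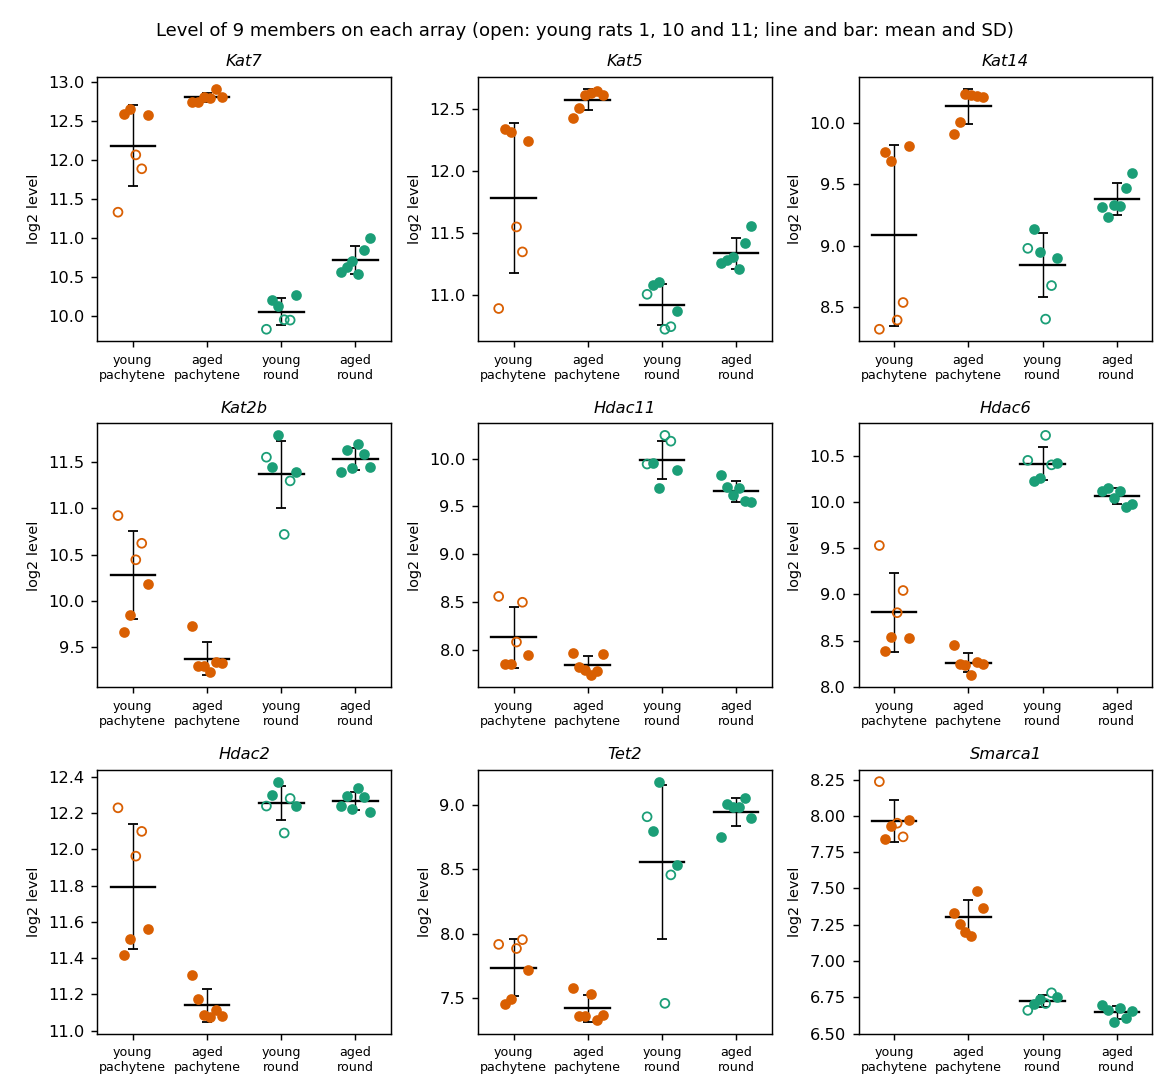
The level of 9 members on each of the 24 arrays is plotted on the joint log2 scale by group, with the mean and SD; open circles are young rats 1, 10 and 11. Kat7 is higher in pachytene spermatocytes than in round spermatids on every array, Hdac11 and Hdac6 are lower, and in the pachytene fractions of young rats 1, 10 and 11 Kat7, Kat5 and Kat14 are low and Hdac2 is high next to the other young rats.

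The second comparison asks how levels in pachytene spermatocytes differed between aged and young rats. Of the 82 members, 21 were higher in aged rats and 16 lower (45.1% in all). Over all 14217 genes 44.5% were called, 25.5% higher and 19.0% lower, and over all probe sets 37.5% (22.1% higher, 15.4% lower), so the share of called members was near that of all genes. The median member changed by 0.06 and the median gene by 0.05 (log2, aged minus young). The split depends on scaling. Without normalization, on the deposited scale, 6 members were higher and 45 lower, where the median of all probe sets shifted by -0.24. Of all probe sets 4.36% were higher and 57.3% lower there. With median centring 35 members were higher and 16 lower, against 34.2% and 13.4% of all probe sets, whose median shifted by 0.13. The age groups did not overlap for 13 higher and 10 lower members, against 26.6% of all genes. Without young rats 1, 10 and 11 the counts were 14 higher and 14 lower, against 14.1% and 10.6% of all probe sets. Counts in these settings are of 82 genes, while the shares are over probe sets. With all rats the share called was lower over probe sets (37.5%) than over genes (44.5%). Of the 21 higher members 11, and of the 16 lower members 12, were still called. In the same arrays 10 of 12 Sertoli cell markers were lower in aged rats, their mean level being 1.70 to 2.35 in young and 0.96 to 1.29 in aged rats without overlap, and 8 of 10 round spermatid markers were lower (4.62 to 5.56 against 4.28 to 4.74). Of 8 pachytene markers 3 were higher and 2 lower, of 6 spermatogonial markers 3 were lower, of 5 peritubular markers 2 were higher, and in each of the Leydig cell (6), macrophage (7) and endothelium (4) lists 1 was called. Their part in the changes below was not tested.

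**Figure D3:**
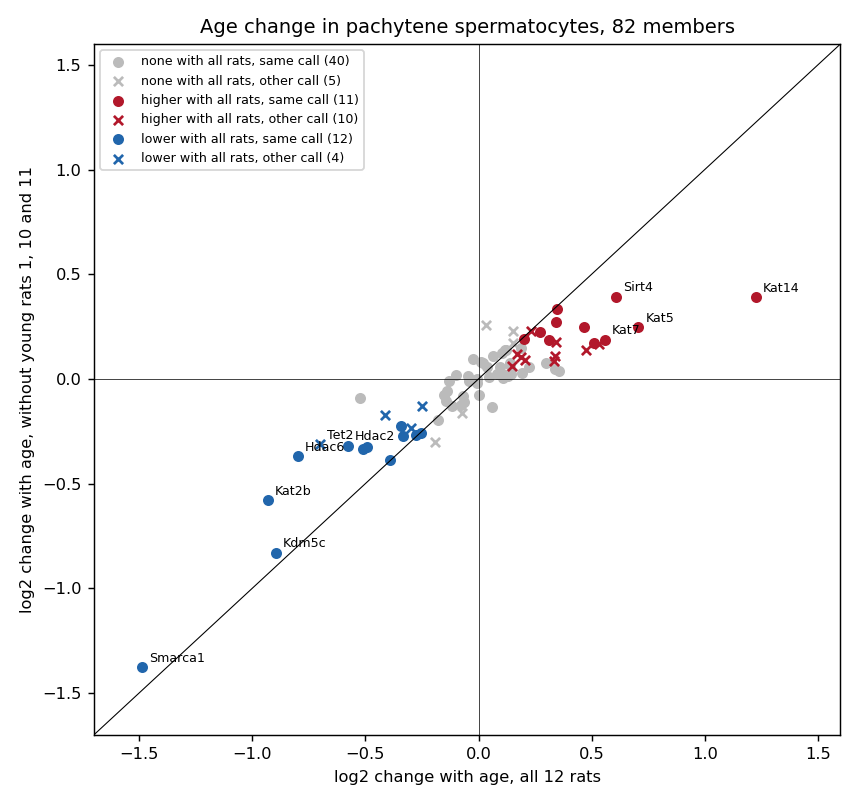
The log2 change with age in pachytene spermatocytes is plotted for the 82 members with all 12 rats (horizontal axis) and without young rats 1, 10 and 11 (vertical axis), with the line of equal values; crosses mark members whose call differed. Kat14, Kat5 and Kat7 lie far below the line on the right (0.39, 0.25 and 0.19 without these rats), while Smarca1 (-1.38) and Kdm5c (-0.83) lie near it.

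Of the 7 acetyltransferases, 4 were higher in aged rats and 1 was lower. Kat14, a subunit of the ATAC acetyltransferase complex, had a level of 8.07, 8.19 and 8.42 in young rats 1, 10 and 11, of 9.85 to 9.99 in the other 3 young rats and of 10.08 to 10.40 in the aged rats. The groups did not overlap, but most of the difference lay in the 3 low rats: the change was 1.23 ± 0.34 or 2.34-fold with all rats (adjusted p = 0.0141) and 0.39 without them (adjusted p = 0.00489). Kat5 was 11.01, 11.60 and 11.42 in these 3 rats, 12.21 to 12.30 in the other young rats and 12.38 to 12.57 in aged rats, a change of 0.71 ± 0.20 (adjusted p = 0.0147) and of 0.25 without them (adjusted p = 0.00733). Kat7 was 11.40, 12.05 and 11.89 in them, 12.51 to 12.58 in the other young and 12.66 to 12.82 in aged rats, a change of 0.56 ± 0.17 (adjusted p = 0.022) and of 0.19 without them (adjusted p = 0.0189). For all 3 genes every aged rat lay above every young rat. Kat2b fell, from 9.82, 10.47 and 11.04 (lowest, median and highest) in young to 9.35, 9.44 and 9.89 in aged rats, by 0.93 ± 0.18 or 1.91-fold (adjusted p = 0.00263). The ranges overlapped through aged rat 2 (9.89), and Kat2b fell by 0.58 without the 3 young rats (adjusted p = 0.0083).

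Of 6 sirtuins 4 were higher and none lower, and of 10 Hdac genes 1 was higher and 3 lower. Over all genes 25.5% were higher and 19.0% lower. Without the 3 rats Sirt4 and Sirt6 alone of the sirtuins were called. Hdac4 (0.33 with all rats, 0.08 without the 3) and Hdac5 (-0.25 and -0.13) lost their calls, and Hdac7 (0.15 and 0.17) was called higher. Sirt4 had a level of 7.28, 7.68 and 7.90 in young and 8.09, 8.27 and 8.36 in aged rats. Every aged rat was above every young rat, a rise of 0.61 ± 0.10 or 1.52-fold (adjusted p = 0.00138), and of 0.39 without the 3 rats (adjusted p = 0.0014). Sirt6 rose by 0.34 ± 0.07 without overlap (8.36 to 8.80 against 8.96 to 9.09, adjusted p = 0.00327) and by 0.27 without them (adjusted p = 0.0023), but on the deposited scale its change was -0.04 and not called. Sirt3 rose by 0.34 ± 0.09 (adjusted p = 0.0119) and Sirt7 by 0.17 ± 0.05 (adjusted p = 0.0265), and neither was called without the 3 rats (0.18 and 0.12). Sirt5 changed by 0.36 ± 0.15 (adjusted p = 0.083) and Sirt2 by -0.10 ± 0.07 (adjusted p = 0.254). Among Hdac genes, Hdac6 fell from 8.19, 8.61 and 9.68 to 7.73, 7.95 and 8.28, by 0.80 ± 0.21 with overlapping ranges (adjusted p = 0.0116), and by 0.37 without the 3 rats (adjusted p = 0.0199). Hdac2 fell from 11.48, 11.78 and 12.19 to 11.18, 11.20 and 11.38 without overlap, by 0.58 ± 0.12 (adjusted p = 0.00313), and by 0.32 without them (adjusted p = 0.00277). Hdac6 and Hdac2 were higher in young rats 1, 10 and 11 (8.80 to 9.68 and 11.96 to 12.19) than in the other young rats (8.19 to 8.42 and 11.48 to 11.61).

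Demethylases were called in both directions, with 4 of 15 higher and 6 lower. Of the 4 higher, Kdm2a (0.19), Kdm4d (0.34) and Kdm8 (0.20) were not called without the 3 rats (0.11, 0.11 and 0.09). Kdm2b, a demethylase that also brings Polycomb complexes to CpG islands, rose from 11.67, 12.22 and 12.55 to 12.58, 12.66 and 12.75, by 0.51 ± 0.14 without overlap (adjusted p = 0.0156), and by 0.17 without the 3 rats (adjusted p = 0.0431). Kdm5c, an X-linked demethylase of active promoters, fell from 6.61, 7.08 and 7.55 to 5.82, 6.22 and 6.41. Every aged rat lay below every young rat, a fall of 0.90 ± 0.15 or 1.86-fold (adjusted p = 0.00112), and of 0.83 without the 3 rats (adjusted p = 0.00105). Kdm4c fell by 0.50 ± 0.10 (4.52 to 5.11 against 4.08 to 4.35, adjusted p = 0.00263) near the absent control, and by 0.33 without the 3 rats (adjusted p = 0.00496). Kdm6b, a demethylase of the Polycomb mark, fell by 0.39 ± 0.08 (adjusted p = 0.0033), and by 0.39 without them (adjusted p = 0.0031). Kdm1b fell by 0.41 ± 0.15 (adjusted p = 0.0445) and by 0.17 without the 3 rats, where it was not called (adjusted p = 0.153). That call was also lost on leaving out any of 7 single rats and with median centring, and the fall was 0.27 without young rat 1 alone.

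In the remodelling group 4 of 13 members were higher and 2 lower. Smarca1, the X-linked ISWI ATPase also called SNF2L, showed the largest change of any member. Its level was 7.20, 7.39 and 7.93 in young and 5.59, 5.93 and 6.43 in aged rats, so that the groups lay apart, and it fell by 1.49 ± 0.15 or 2.80-fold (adjusted p = 0.000231), and by 1.38 without the 3 rats (adjusted p = 0.000283). Smarcad1, a remodeller with a role in heterochromatin maintenance, fell by 0.51 ± 0.10 without overlap (adjusted p = 0.00269), and by 0.34 without the 3 rats (adjusted p = 0.00678). Smarcal1, an annealing helicase at replication forks, rose by 0.47 ± 0.10 without overlap (9.18 to 9.72 against 9.89 to 10.07, adjusted p = 0.00396), and by 0.25 without the 3 rats (adjusted p = 0.00437). Smarca2 rose by 0.35 ± 0.11 (adjusted p = 0.0234), and by 0.34 without them (adjusted p = 0.0159). Smarcal1, Smarca2 and Sirt4 were not called on the deposited scale.

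Of the 6 DNA methylation genes Tet2 alone was called with age in pachytene spermatocytes, falling from 6.35, 7.11 and 7.42 to 6.04, 6.12 and 6.64 with overlap, by 0.70 ± 0.19 (adjusted p = 0.0143); without the 3 rats its change was -0.31 and did not pass (adjusted p = 0.179). The changes of Dnmt1 (-0.05 ± 0.05), Dnmt3a (0.02 ± 0.07), Dnmt3b (-0.06 ± 0.06), Tet1 (0.00 ± 0.05) and Tet3 (0.05 ± 0.05) did not pass the test. Nor did those of Ezh1 (-0.02 ± 0.10) and Ezh2 (-0.0048). Of 8 Kmt genes 3 were lower and none higher, namely Kmt2a (-0.30), Kmt2c (-0.33) and Kmt5a (-0.28). Without the 3 rats Kmt2a was at -0.24 and not called (adjusted p = 0.0702), and Kmt2c (-0.27) and Kmt5a (-0.27) were called. Of 9 Setd genes 3 were higher and none lower, with Setd1b at 0.53 ± 0.17 (adjusted p = 0.0252), a call lost without the 3 rats (0.17, adjusted p = 0.126). Other probe sets of Kmt2a and of Kdm5a were called in the opposite direction. Of the readers Cbx7 alone rose, by 0.48 ± 0.16 (adjusted p = 0.0341), and was not called without the 3 rats (0.14, adjusted p = 0.0638).

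The X chromosome carries 4 members. In pachytene spermatocytes 3 of them were lower in aged rats (Smarca1, Kdm5c and Hdac6), and Hdac8 changed by 0.04. Over all 448 measured genes of the X chromosome 242 were lower and 15 higher, with a median of -0.40, and of the 78 members elsewhere 13 were lower and 21 higher. In round spermatids 1 of the 4 X-linked members was lower, while 78 of the 448 X-linked genes were lower and 8 higher.

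The third comparison asks the same of round spermatids. Of the 82 members, 12 were higher in aged rats and 8 lower (24.4% in all), close to the 24.9% of all genes (12.4% higher, 12.5% lower; over probe sets 17.1%, with 8.6% higher and 8.54% lower). The median member changed by -0.02 and the median gene by 0.00. On the deposited scale 42 members were higher and 0 lower, with a shift of 0.14 in the median of all probe sets. Of all probe sets 53.1% were higher and 2.24% lower there. With median centring, which shifted that median by 0.01, 11 members were higher and 5 lower, against 5.68% and 5.74% of all probe sets. The groups did not overlap for 8 higher and 2 lower members, against 11.7% of all genes. Without young rats 1, 10 and 11, 6 members were higher and 1 lower, against 3.08% and 2.41% of all probe sets. These rats were chosen on the pachytene arrays. Counts in these settings are of 82 genes, while the shares are over probe sets. With all rats the share called was lower over probe sets (17.1%) than over genes (24.9%). In these arrays 7 of 12 Sertoli markers were lower in aged rats (mean level -0.42 to 0.04 in young and -0.81 to -0.52 in aged rats) and 4 of 8 pachytene markers were higher (1.16 to 1.57 against 1.53 to 1.80), and 3 of 6 spermatogonial markers were lower (-0.59 to -0.28 against -0.71 to -0.64, without overlap). Their part was not tested. Of 10 round spermatid markers 1 was lower and none higher, and no marker of Leydig cells, peritubular cells, macrophages or endothelium was called.

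Of the 7 acetyltransferases, 4 were higher and 1 was lower in aged rats. Kat7 rose from 9.53, 9.76 and 10.02 in young rats to 10.32, 10.46 and 10.84 in aged rats, without overlap, by 0.73 ± 0.10 or 1.66-fold (adjusted p = 0.00177), the largest change of any member in round spermatids. Kat14 rose from 8.21, 8.64 and 8.83 to 8.93, 9.02 and 9.29, by 0.50 ± 0.09 or 1.42-fold (adjusted p = 0.00393). Kat5 rose from 10.53, 10.77 and 10.95 to 11.07, 11.17 and 11.46, by 0.47 ± 0.09 or 1.38-fold (adjusted p = 0.00371). Every aged rat was above every young rat for each of these 3 genes. Kat6a rose by 0.21 ± 0.07 (adjusted p = 0.0493), a call lost without young rats 1, 10 and 11. Kat2b changed by 0.19 ± 0.15 (adjusted p = 0.462). Kat2a fell by 0.13 ± 0.03 (adjusted p = 0.0117), although on the deposited scale its change was 0.026 and not called. Without young rats 1, 10 and 11 the change of Kat2a was -0.10 and not called.

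Of the demethylases 2 rose and 2 fell. Kdm2b rose from 11.06, 11.58 and 11.76 to 11.89, 12.10 and 12.30 without overlap, by 0.58 ± 0.11 (adjusted p = 0.00361), and Kdm7a by 0.21 ± 0.05 (adjusted p = 0.0134). Kdm5b fell by 0.31 ± 0.09 (adjusted p = 0.0234) and Kdm6b by 0.16 ± 0.04 (adjusted p = 0.00929), and neither was called without young rats 1, 10 and 11 or on the deposited scale. Kdm5b was at -0.09 and not called as the mean over its probe sets (adjusted p = 0.202). No methyltransferase was called in round spermatids, among them Ezh1 (-0.10 ± 0.07) and Ezh2 (-0.14). In the remodelling group 3 rose and none fell, with Smarcd2, a BAF subunit used in blood cells, going from 8.99, 9.39 and 9.60 to 9.64, 9.75 and 9.93 (0.42 ± 0.09, adjusted p = 0.00658), Smarca2 rising by 0.29 ± 0.05 (adjusted p = 0.00417) and Smarca4 by 0.28 ± 0.05 (adjusted p = 0.00479), each without overlap. Smarca2 did not pass with median centring (adjusted p = 0.0528), nor as the mean over its probe sets (0.12, adjusted p = 0.106). Cbx7 rose by 0.35 ± 0.09 (adjusted p = 0.02) with overlapping ranges, and was not called without the 3 rats (0.21). Smarca4 (0.21, adjusted p = 0.0622) and Kdm7a (0.21, adjusted p = 0.0507) also lost their calls without them, Kdm7a at about the same size as with all rats.

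Deacetylases split 2 higher to 3 lower. Hdac6 fell from 9.97, 10.18 and 10.53 to 9.67, 9.82 and 9.89 without overlap, by 0.39 ± 0.08 (adjusted p = 0.00599), and by 0.12 on the deposited scale, where it was not called. Hdac11 fell from 9.39, 9.66 and 9.98 to 9.24, 9.35 and 9.53, by 0.35 ± 0.09 with overlap (adjusted p = 0.0156), and the change was -0.20 and not called without the 3 rats. Hdac3 fell by 0.10 ± 0.03 (adjusted p = 0.0415), a change of 0.16 on the deposited scale and of 0.027 with median centring. Sirt5 rose by 0.36 ± 0.11 (adjusted p = 0.0356) and Sirt7 by 0.19 ± 0.05 (adjusted p = 0.0146). Neither was called without the 3 rats, where Sirt5 was at 0.21. The other 4 sirtuins did not pass, at 0.11 (Sirt3), 0.04 (Sirt4), 0.00 (Sirt2) and -0.05 (Sirt6). Both called DNA methylation genes were lower: Dnmt1 fell from 8.23, 8.41 and 8.78 to 8.12, 8.19 and 8.25, by 0.26 ± 0.08 with overlap (adjusted p = 0.0381), and Dnmt3a from 7.97, 8.07 and 8.17 to 7.89, 7.94 and 7.98, by 0.13 ± 0.03 with overlap (adjusted p = 0.0167). Without the 3 rats neither was called. On the deposited scale Dnmt3a changed by 0.0036 and Dnmt1 by -0.10 without a call, and Dnmt3a was at -0.06 and not called as the mean over its probe sets (adjusted p = 0.107). Dnmt3b (-0.03), Tet1 (-0.04), Tet3 (-0.02) and Tet2 (0.32 ± 0.17, adjusted p = 0.25) did not pass.

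**Figure D4:**
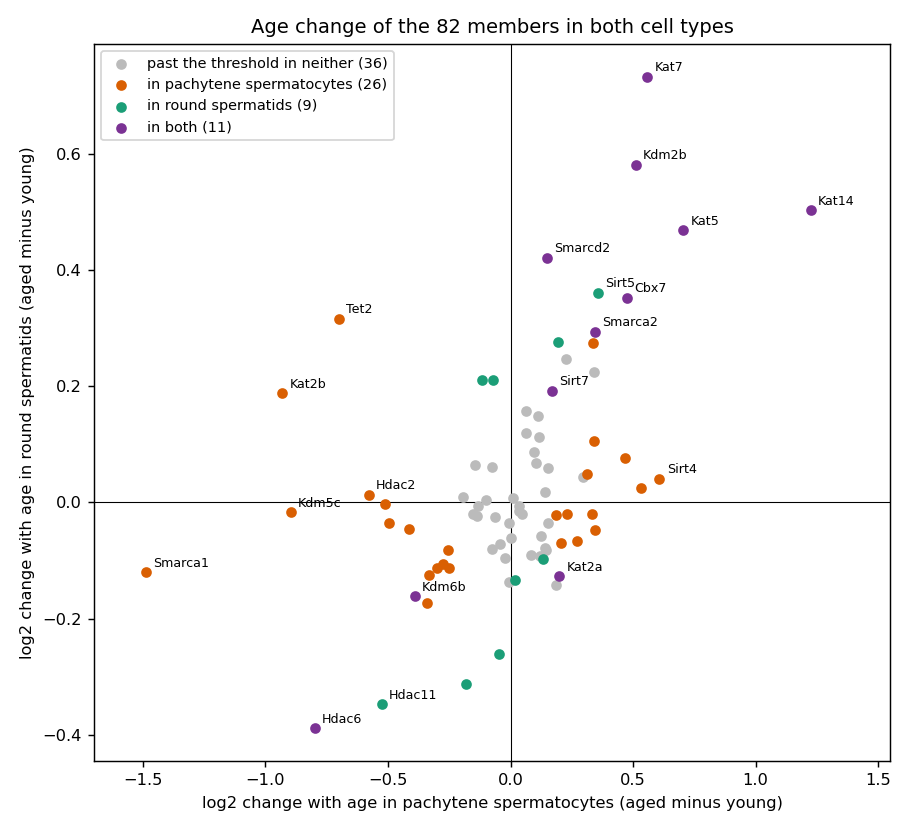
The log2 change with age (aged minus young) in pachytene spermatocytes (horizontal axis) and in round spermatids (vertical axis) is plotted for the 82 members, coloured by where adjusted p was under 0.05. Kat7, Kdm2b, Kat14 and Kat5 lie at the upper right, Hdac6 at the lower left, and Smarca1 and Kdm5c near 0 in round spermatids.

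Set side by side, 11 members were called with age in both cell types, 26 in pachytene spermatocytes alone, 9 in round spermatids alone and 36 in neither. Over all 14217 genes the shares were 15.8%, 28.7%, 9.13% and 46.4%, against 13.4% of the members in both and 43.9% in neither, and the arrays of both cell types carry the same rat numbers. Higher in both were 8 members (Kat5, Kat7, Kat14, Kdm2b, Cbx7, Sirt7, Smarca2 and Smarcd2) and lower in both 2 (Hdac6 and Kdm6b). Of the 8, Cbx7, Sirt7 and Smarcd2 were not called in pachytene spermatocytes without the 3 rats. In round spermatids Cbx7 and Sirt7, and Kdm6b of the 2 lower members, were not called without them. Kat2a was higher in pachytene spermatocytes (0.20, and 0.19 and called without the 3 rats). In round spermatids Kat2a was lower (-0.13, and -0.10 and not called without the 3 rats), and its change there was 0.026 on the deposited scale. Of all genes 8.17% were higher in both, 6.65% lower in both and 0.96% called in opposite directions.

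Whether the age effect itself differed between the cell types was tested on the joint scale, as the age effect in round spermatids minus that in pachytene spermatocytes. The joint scale compresses low pachytene values, so this difference is smaller for dim genes than the separate changes imply. It was called for 17 members, 7 positive and 10 negative (20.7%), against 16.2% of all genes (7.31% positive, 8.93% negative; over probe sets 13.1%, with 5.97% and 7.09%), with a median of -0.03 in members and -0.02 over all genes. On the deposited scale after the offset, where the median of all probe sets was 0.26, it was positive for 63 members and negative for 0. Of all probe sets 80.8% were positive and 0.09% negative there. With median centring, where that median was -0.09, it was positive for 13 members and negative for 11, against 9.18% and 26.9% of all probe sets. Counts in these settings are of 82 genes, while the shares are over probe sets. In the main fit the share called was lower over probe sets (13.1%) than over genes (16.2%). Kat2b had the largest difference, 1.08 ± 0.25 (adjusted p = 0.00676), which was 0.53 and not called without young rats 1, 10 and 11. For Hdac2 the difference was 0.67 ± 0.14 (adjusted p = 0.00477), and 0.31 and called without them: its level in round spermatids was 12.07 to 12.39 in young and 12.21 to 12.36 in aged rats. Smarca1 differed by 0.58 ± 0.08 (adjusted p = 0.000186) and Kdm5c by 0.38 ± 0.07 (adjusted p = 0.00243), and both were at the level of the absent control in round spermatids, which bounds any fall there. Kdm7a differed by 0.38 ± 0.08 (adjusted p = 0.00422). On the negative side were Smarcal1 (-0.35 ± 0.10, adjusted p = 0.0224), Sirt6 (-0.31 ± 0.06, adjusted p = 0.00259), Sirt4 (-0.31 ± 0.07, adjusted p = 0.00839), Kat2a (-0.29 ± 0.05, adjusted p = 0.000458) and Smarcd1 (-0.26 ± 0.06, adjusted p = 0.0106). All 5 were positive on the deposited scale after the offset. Kat2a (0.19, adjusted p = 0.00654) and Smarcd1 (0.24, adjusted p = 0.00125) were called there in that opposite direction, and Smarcal1, Sirt6 and Sirt4 were not called. With median centring Smarcal1 was at -0.24 and not called (adjusted p = 0.151). Smarcal1 (-0.17), Sirt4 (-0.14) and Smarcd1 (-0.19) were not called without the 3 rats.

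Partners and further enzymes outside these families were measured for 88 genes, among them Polycomb, COMPASS, NuRD and BAF subunits, bromodomain proteins and arginine methyltransferases. Between the cell types 52 of the 88 (59.1%, against 38.6% of all genes) were lower and 33 (37.5%, against 49.8%) higher in round spermatids, the extremes being Phf2 (-3.70), Rnf2 (-3.36) and Pcgf6 (-2.65), the last a subunit of a germ-cell Polycomb complex, and Dpy30 (1.68), Hat1 (1.65) and Jarid2 (1.65). With age in pachytene spermatocytes 27 were higher (30.7%, against 25.5% of all genes) and 22 lower (25.0%, against 19.0%): Phf2, a demethylase related to the Kdm family, changed by 0.80, Riox2 by 0.70 and Dot1l by 0.62, while Phf8 (-1.19), Rbbp7 (-1.14) and Mta3 (-0.93) fell. In round spermatids 22 were higher (25.0%, against 12.4% of all genes), led by Phf2 (0.53), Mta2 (0.48) and Cxxc1 (0.47), and 8 lower (9.09%, against 12.5%), led by Dpf3 (-0.59), Rbbp7 (-0.36) and Carm1 (-0.36). The age effect differed between the cell types for 8 in the positive (9.09%, against 7.31% of all genes) and 3 in the negative direction (3.41%, against 8.93%).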

How the data were processed

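The authors deposited 1 table of log2 values for 31099 probe sets on 24 arrays, per the file headers and the range of the values; the summarisation, background correction and normalization behind it are not given in the sources used here. The 57 control probe sets were left out of the tests, and 31042 were fitted with limma (version 3.58.1, R 4.3.3; lmFit and eBayes). P-values were adjusted over all of them with the Benjamini-Hochberg method, at a threshold of 0.05. Age was compared after quantile normalization within a cell type. Where both cell types entered a fit, an offset of 90.3 was added to the linear pachytene values, which brought the mean difference of the 45 spike-in controls from 0.61 ± 0.77 (SD over controls) to -0.03 ± 0.17, before quantile normalization of all arrays and a fit of 4 group means. The members, the marker and related gene lists and the tests were chosen with earlier results of these data known. Differences were given for the 10 members with the largest called difference in each direction (5 for the difference of the age effect). Between the cell types and with age, they were also given for Dnmt, Tet, Ezh and Sirt genes. The same holds there for the 3 related genes with the largest difference in each direction. Other names were chosen after their values were seen. The titles number the rats, taken here as separate animals that each gave both fractions: the correlation of the 2 fractions' deviations from their group means was -0.07 to 0.36, and 6 of 12 fractions matched their own rat best. Numbers that young and aged rats share (2, 3 and 10) belong to different rats. The number of arrays limits the precision. Scripts were tested on simulated data.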

Additional observations from a re-analysis of the deposited data

Results flagged for a closer look

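Among 76 groups of 6 arrays tested for the 30 genes named with the largest differences, 6 held an array whose gap to the nearest other array, divided by the range of the group, was over Dixon's critical value; chance gives about 1 in 20. In aged pachytene spermatocytes these were Kat2b in aged rat 2 (9.89, others 9.35 to 9.47) and Kat7 in aged rat 9 (12.8, others 12.66 to 12.72). In young pachytene spermatocytes they were Sirt6 (8.36, others 8.66 to 8.80) and Smarca1 (7.93, others 7.20 to 7.45), both in young rat 1. In round spermatids Kdm6b stood apart in young rat 2 (8.09, others 8.22 to 8.26) and in aged rat 3 (8.16, others 8.01 to 8.05).

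The age effect differed between the cell types, by the test of that difference itself in limma (adjusted p under 0.05), for 17 members. It was more positive in round spermatids for Kat2b (1.08), Hdac2 (0.67), Smarca1 (0.58), Kdm5c (0.38), Kdm7a (0.38), Smarcad1 (0.25) and Kdm4c (0.14), whose level was not above the absent control. It was more negative for Smarcal1 (-0.35), Sirt6 (-0.31), Sirt4 (-0.31), Kat2a (-0.29), Smarcd1 (-0.26), Kdm8 (-0.25), Setd4 (-0.23), Hdac3 (-0.23), Setd3 (-0.22) and Dnmt3a (-0.19).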

How the results depend on the processing

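Counts are given as members higher and lower, against 21 and 16 (age, pachytene spermatocytes), 12 and 8 (age, round spermatids), 28 and 46 (cell type) and 7 and 10 (difference of the age effect). With a fold of at least 1.5 they were 3 and 5, 1 and 0, 11 and 24, and 2 and 0. With median centring they were 35 and 16, 11 and 5, 22 and 54, and 13 and 11. On the deposited scale they were 6 and 45, 42 and 0, 21 and 54, and 63 and 0. For the cell type and the difference of the age effect, the deposited scale here is that after the offset. Without young rats 1, 10 and 11 they were 14 and 14, 6 and 1, 29 and 47, and 5 and 2. The counts are of 82 genes, and the shares that follow are over all probe sets. In the main fits the shares called were lower over probe sets than over genes. For all probe sets the fold setting gave 3.15% and 7.36%, 0.42% and 0.65%, 12.9% and 15.3%, and 1.45% and 0.42%. Median centring gave 34.2% and 13.4%, 5.68% and 5.74%, 48.4% and 39.1%, and 9.18% and 26.9%. The deposited scale gave 4.36% and 57.3%, 53.1% and 2.24%, 40.9% and 43.1%, and 80.8% and 0.09%. Without the 3 young rats these shares were 14.1% and 10.6%, 3.08% and 2.41%, 45.5% and 38.4%, and 4.26% and 4.17%. Leaving out each rat in turn gave 12 to 28 members higher and 14 to 18 lower, 9 to 16 and 5 to 9, 27 to 29 and 44 to 47, and 6 to 9 and 4 to 13. The largest losses were 12 higher in pachytene spermatocytes without aged 9, 5 lower in round spermatids without young 11 or aged 10, and for the difference 4 lower without aged 8 and 6 without young 11, aged 5 or aged 10. Directions that turned were, on the deposited scale, Sirt6 (-0.038) with age in pachytene spermatocytes, Dnmt3a (0.0036), Kat2a (0.026) and Hdac3 (0.16) in round spermatids, and the difference for Smarcal1 (0.11), Sirt6 (0.14), Sirt4 (0.089), Kat2a (0.19) and Smarcd1 (0.24). With median centring Hdac3 in round spermatids was 0.027, and as the mean over its probe sets Kmt2d differed by -0.62 between the cell types. The cause was not tested. With a replicate block the counts were 14 and 15 and 12 and 7 for age (the numbers shared by young and aged rats, which do not pair them), and 28 and 46 and 8 and 11 for the others (the rat, correlation 0.06). None of the 20 calls named between the cell types was lost on leaving out a single rat. With age in pachytene spermatocytes the call of Setd1b was lost without young 10, young 11 or aged 9, that of Smarca2 without aged 9, and those of Cbx7 and Kdm1b without any 1 of 7 rats (young 10 and 11, aged 3, 5, 8, 9 and 10). In round spermatids Cbx7 lost its call without young 11, aged 9 or aged 10, Kdm5b without young 11, young 13 or aged 10, Sirt5 without any 1 of 6 rats, Dnmt1 of 8 and Hdac3 of 9, and the difference for Smarcal1 without young 1, young 11, aged 5 or aged 8. Signal near the absent control limits Kdm4c, Tet1, Kdm5c and Smarca1.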
